A study of Caenorhabditis elegans with 15 samples.

Results

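Complex I of the respiratory chain takes electrons from NADH, passes them to ubiquinone and pumps protons across the inner mitochondrial membrane. Its membrane arm is built around subunits that the mitochondrial chromosome encodes, while most other subunits are encoded in the nucleus and imported, so the complex needs transcripts of both genomes. The 7 genes described here are ND1, ND2, ND3, ND4, ND4L, ND5 and ND6 of Caenorhabditis elegans, taken by their RefSeq symbols on the mitochondrial chromosome, out of 46929 genes in the count table. All 7 passed the filter on low counts and were among the 15725 genes tested. Mitochondrial transcripts of animals are cut out of long precursors, with tRNAs between many of the genes, and most carry a poly(A) tail, so poly(A) selection retains them.

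RNA came from pools of about 1000 whole worms per library, with 5 libraries in each of 3 groups. Wild type is the laboratory strain N2 and carries no construct. ABR275 is the strain that overexpresses the secreted phosphatase ACP7 (gene F21A3.11) from the promoter of ges-1, an esterase gene of the intestine, and is labelled ACP7 OE. ABR484 carries F21A3.11-7A, the phosphatase-inactive form, behind the same promoter, and is labelled as overexpression of ACP7-7A. Both constructs also hold WormScarlet, a red fluorescent protein, behind the trans-splice leader SL2, and end in the 3'UTR of the muscle myosin gene unc-54. Each construct is present in just 1 strain, so construct and strain background cannot be told apart. The age of the worms is not given in the sources used here, and nothing in the labels says whether the 5 libraries came from separate cultures, so p-values measure the spread between these libraries only.

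Library totals ran from 39050495 to 58077047 counts. F21A3.11, the overexpressed gene, stood at 15 ± 1.52 library-scaled counts (CPM, adjusted for sequencing depth) in wild type, 610 ± 29.8 in ABR275 and 1360 ± 229 in ABR484 (SD, n = 5 each). Both strains lay above wild type, as labelled, and ABR484 held 2.24-fold more of this RNA than ABR275 (edgeR adjusted p = 1.4e-07). Wild-type library 5 and ABR484 libraries 1 and 2 stood apart in an earlier analysis of these data. In those 3 libraries the summed CPM of 31 sperm markers was 160, 84.5 and 81.1, while the other 4 wild-type libraries had 209 to 251 and the other 3 of ABR484 had 368 to 379. Wild-type library 5 was also the lowest of its group for all 7 ND genes. Results that lean on these libraries are given with and without them.

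All 7 genes lie on the plus strand of the chromosome (WBcel235, chromosome MT), as do all 36 genes annotated there, so no antisense gene overlaps them. ND6 lies at 113 to 547 and ND4L follows after 1 base, at 549 to 782. ND1 lies at 1763 to 2638 and shares its last 5 bases with ATP6, a subunit gene of ATP synthase. ND2 lies at 3418 to 4266 and ND4 at 6506 to 7735. ND3, at 11356 to 11691, shares 1 base with ND5, at 11691 to 13274. How reads that span 2 neighbouring genes were counted is not given in the sources used here.

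Per kb of gene length, ND5 had the highest mean level of the 7 over the 15 libraries, 739 CPM per kb, followed by ND3 (643), ND4 (558), ND1 (542), ND2 (281), ND6 (134) and ND4L (7.57). The first 4 lay close together. ND5 was above ND3 in 14 of 15 libraries, ND3 above ND4 in 13 and ND4 above ND1 in 10, and the ranges of each of these pairs overlapped. ND1 was above ND2, ND2 above ND6 and ND6 above ND4L in all 15 libraries. The step from ND6 to ND4L was 17.7-fold between neighbours on the chromosome. ND4L is 234 bases long and held only 47 to 131 counts in a library, against 40751 to 71940 for ND5. All 7 were below the 5 other protein-coding genes of the chromosome in mean level per kb, of which CYTB was the lowest at 871 and ATP6 the highest at 3240 CPM per kb.

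**Figure D1:**
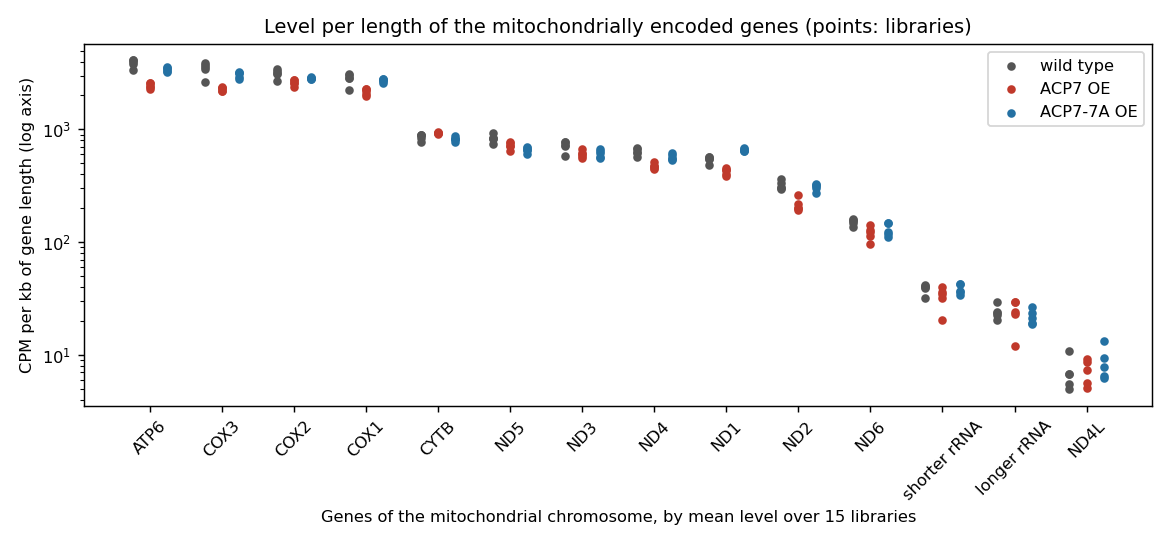
Level of each mitochondrial protein-coding and rRNA gene as CPM per kb of gene length (log axis), with a point for each of the 15 libraries and colours for the groups (ABR275 is drawn as ACP7 OE and ABR484 as ACP7-7A OE). By mean level ND5, ND3, ND4 and ND1 lie close together below CYTB. The libraries of ND5 (607 to 919) and CYTB (770 to 954) overlap. ND4L has the lowest mean, with libraries between 4.95 and 13.3 CPM per kb.

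Worms with active ACP7 (ABR275) had less RNA of most ND genes than wild type. ND2, ND4, ND1 and ND5 fell, by 0.58, 0.42, 0.36 and 0.22 on the log2 scale, so 4 of 7 members fell and 0 rose (adjusted p under 0.05 by edgeR's quasi-likelihood test, corrected over all genes tested). Over all 15725 genes 1.2% fell and 1.48% rose, 2.68% in all. The median log2 fold change was -0.33 over the 7 genes and 0 over all genes. At an unadjusted p under 0.05 there were 6 members, each lower, and DESeq2 called 5 lower and 0 higher. Over all genes DESeq2 called 326 lower and 397 higher. How many of all genes had an unadjusted p under 0.05 was not counted, here or in later passages. In whole-worm RNA, fewer cells of a type and less RNA per cell cannot be told apart.

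ND2, ND4 and ND5 encode the antiporter-like subunits, which in the mammalian and bacterial enzymes form the proton channels of the membrane arm. ND2 had 257, 281, 305, 264 and 252 CPM in wild-type libraries 1 to 5, and 163, 171, 183, 222 and 171 CPM in ABR275. Every ABR275 library lay below every wild-type library, and ABR275 library 4 was the nearest to them. The fall was 1.49-fold (log2 fold change -0.58, SE 0.07, edgeR adjusted p = 2.7e-05).

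ND4 stood at 778, 820, 838, 751 and 703 CPM in wild type and at 584, 576, 563, 631 and 549 CPM in ABR275. The groups did not overlap here either. ND4 fell 1.34-fold (log2 fold change -0.42, SE 0.06, edgeR adjusted p = 4.3e-05).

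ND5, the most abundant of the 7, had 1330, 1330, 1460, 1310 and 1180 CPM in wild type, against 1130, 1200, 1120, 1220 and 1020 CPM in ABR275. Wild-type library 5 lay within the ABR275 range, so the groups overlapped. The log2 fold change was -0.22 (SE 0.06, edgeR adjusted p = 0.047), which rests on single libraries. Without wild-type library 1, 2, 3 or 4 the adjusted p was 0.084, 0.084, 0.16 and 0.079, without ABR275 library 1, 3 or 5 it was 0.069, 0.17 and 0.11, and without ABR484 library 3 it was 0.053. Without wild-type library 5 it was 0.0069.

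ND1 encodes the subunit at the foot of the membrane arm, where ubiquinone enters in the mammalian enzyme. Its level was 478, 495, 494, 481 and 423 CPM in wild type, against 399, 380, 351, 383 and 336 CPM in ABR275, with no overlap. It fell 1.28-fold (log2 fold change -0.36, SE 0.06, edgeR adjusted p = 0.00023). ND1, ND2 and ND4 were thus the 3 members whose ABR275 range lay wholly below wild type, against 2.33% of all genes tested, and 4.39% lay wholly above.

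ND3, ND4L and ND6 encode small subunits that sit between ND1 and the antiporter-like subunits in the mammalian enzyme. ND6 had 64.5, 70.2, 66.8, 68.8 and 58.7 CPM in wild type, against 62.4, 55.3, 53.6, 42 and 49 CPM in ABR275 (log2 fold change -0.33, SE 0.09, edgeR adjusted p = 0.062). ABR275 library 1 lay among the wild-type values, and without it the adjusted p was 0.015. The threshold was also passed with DESeq2 (0.031), without wild-type library 5 (0.034) and without ABR484 library 1, 4 or 5 (0.032, 0.048 and 0.049). ND3 had 244, 261, 261, 241 and 193 CPM in wild type, against 225, 208, 194, 203 and 187 CPM in ABR275 (log2 fold change -0.24, SE 0.07, edgeR adjusted p = 0.088). Its lowest wild-type value was that of library 5, without which the log2 fold change was -0.32 (edgeR adjusted p = 0.0025), and without ABR275 library 1 the adjusted p was 0.047.

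ND4L had 1.62 ± 0.544 CPM in wild type, against 1.67 ± 0.411 CPM in ABR275 (SD, n = 5 each). With so few counts its 95% interval ran from -0.53 to 0.62 on the log2 scale, which includes changes of the size found for the other members. With wild-type library 5 left out 6 of the 7 ND genes were lower, all but ND4L, and the same number was found without the 3 libraries that stood apart. Over all genes the number lower in ABR275 also went up in these settings, to 504 and 1413, against 189 with all libraries.

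**Figure D2:**
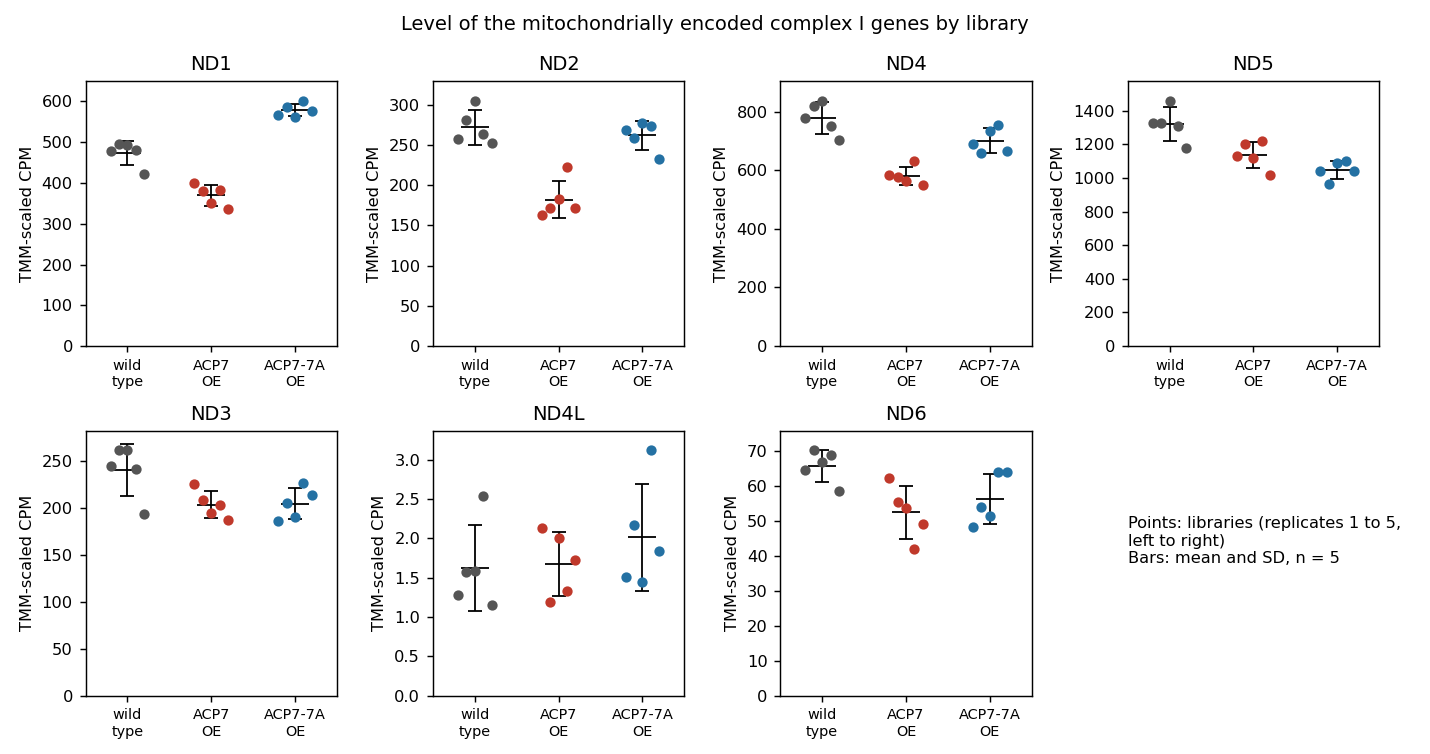
TMM-scaled CPM of the 7 ND genes, with a point for each library (replicates 1 to 5 from left to right) and bars for the mean and SD of 5 libraries; each axis starts at 0. ND1 lies highest in ABR484 (563 to 602 CPM), in the middle in wild type and lowest in ABR275 (336 to 399 CPM). ND5 in ABR484 (962 to 1100 CPM) lies below wild type and overlaps ABR275 (1020 to 1220 CPM).

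In worms with inactive ACP7-7A (ABR484), set against wild type, ND1 rose and ND5 fell, and the other 5 members did not pass. ND5 was thus called lower in both strains. Over all genes 2.66% rose and 4.2% fell, 6.86% in all, and the median log2 fold change of the 7 genes was -0.15, against 0 over all genes. This comparison shares its wild-type libraries with the one above.

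ND1 stood at 568, 587, 563, 602 and 577 CPM in ABR484, above all wild-type libraries (423 to 495 CPM). The rise was 1.22-fold (log2 fold change 0.29, SE 0.06, edgeR adjusted p = 0.0035). It was 0.23 on the log2 scale (edgeR adjusted p = 0.0034) without wild-type library 5. ND5 stood at 1040, 962, 1090, 1100 and 1040 CPM in ABR484, below all wild-type libraries (1180 to 1460 CPM), and fell 1.26-fold (log2 fold change -0.34, SE 0.06, edgeR adjusted p = 0.0019). Over all genes, ranges that did not overlap were found for 2.12% higher and 2.92% lower genes.

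ND2 was at 262 ± 18.3 CPM in ABR484 and 272 ± 21.6 CPM in wild type (SD, n = 5 each), with a 95% interval of the log2 fold change from -0.21 to 0.1. ND4 was at 700 ± 43 and 778 ± 53.8 CPM (log2 fold change -0.15, SE 0.06, edgeR adjusted p = 0.11). ND3 was at 204 ± 16.8 and 240 ± 27.9 CPM (log2 fold change -0.23, SE 0.07, adjusted p = 0.059). Both depended on wild-type library 5, without which ND4 had an adjusted p of 0.016 and ND3 of 0.0016, and 3 members were lower. Without that library 1358 of all genes were lower in ABR484, against 660 with all libraries. ND3 passed also without ABR275 library 1 (adjusted p = 0.043) or ABR484 library 4 (adjusted p = 0.034). ND6 (56.3 ± 7.19 CPM, log2 fold change -0.22, adjusted p = 0.14) and ND4L (2.02 ± 0.682 CPM, adjusted p = 0.53) did not pass.

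ABR275 and ABR484 were also compared directly; they differ in the form of ACP7, in strain and in the level of F21A3.11, which cannot be told apart. ND1, ND2 and ND4 were lower in ABR275 than in ABR484, so 3 of 7 members were lower and 0 higher, against 3.76% lower and 4.79% higher, 8.56% in all, over all genes. DESeq2 called 3 lower and 0 higher, against 808 lower and 999 higher over all genes. An unadjusted p under 0.05 was found for 3 members. ND1 differed by 1.57-fold (log2 fold change -0.65, SE 0.06, edgeR adjusted p = 2.7e-08), the largest difference of any ND gene in the 3 comparisons. ND2 differed by 1.44-fold (log2 fold change -0.53, SE 0.07, adjusted p = 5.8e-05) and ND4 by 1.21-fold (log2 fold change -0.27, SE 0.06, adjusted p = 0.0035). For these 3 genes the ranges did not overlap, a pattern seen for 2.87% of all genes in that direction and 4.21% in the other. ND2 had 269, 258, 277, 274 and 232 CPM in ABR484, and ND4 had 690, 658, 734, 756 and 665 CPM.

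ND5 was at 1140 ± 80.5 CPM in ABR275 and 1050 ± 56.4 CPM in ABR484 (log2 fold change 0.12, 95% interval 0 to 0.24, edgeR adjusted p = 0.22). ND3 was at 203 ± 14.4 and 204 ± 16.8 CPM, with a 95% interval from -0.16 to 0.15. ND6 and ND4L had intervals from -0.3 to 0.09 and from -0.84 to 0.31.

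**Figure D3:**
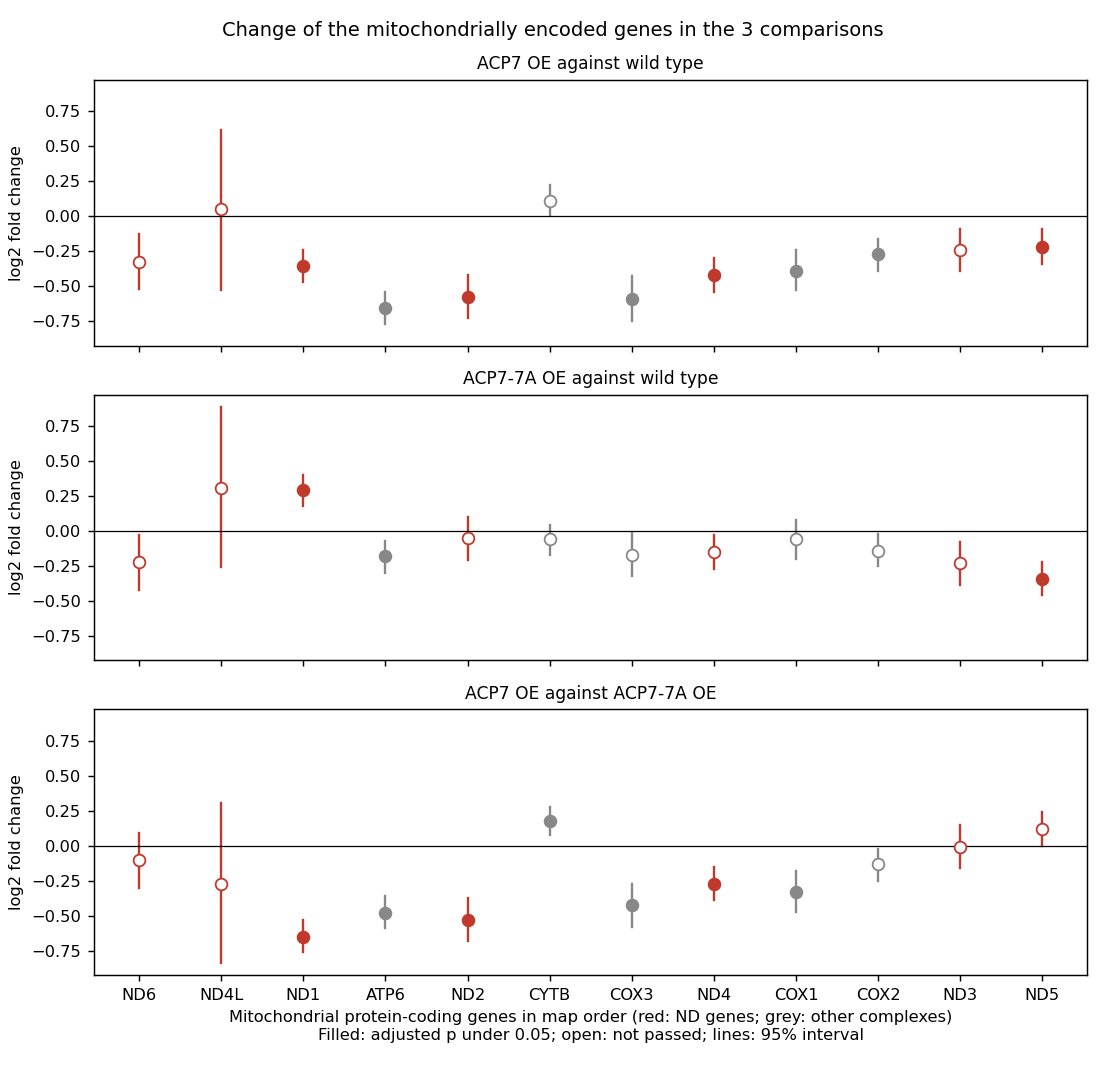
Log2 fold change with its 95% interval for the 12 mitochondrial protein-coding genes in map order, in the 3 comparisons; red marks ND genes, filled points passed an adjusted p under 0.05. ND1 is below 0 in ABR275 (-0.36) and above 0 in ABR484 (0.29), and the interval of ND4L is the widest.

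Ratios between ND genes within a library are free of any scaling between libraries. They are given as a description, since they were chosen after the levels were seen. ND1 had 35.9, 37.1, 33.9, 36.6 and 35.7 counts per 100 counts of ND5 in wild type, 35.2, 31.6, 31.2, 31.4 and 33 in ABR275 and 54.7, 61.1, 51.6, 54.5 and 55.3 in ABR484. The ABR484 libraries lay above all others, and ABR275 overlapped wild type. ND4 had 57.2 to 61.5 counts per 100 of ND5 in wild type, 47.9 to 53.9 in ABR275 and 63.8 to 68.4 in ABR484, and ND2 had 19.3 to 21.3, 14.2 to 18.2 and 22.3 to 26.8. For both, the 3 groups did not overlap. In ABR484 against wild type ND5 itself fell (log2 fold change -0.34), while ND2 (-0.05) and ND4 (-0.15) did not pass. The higher ratios of ND2 and ND4 in ABR484 are thus not higher levels of these 2 genes. How often ratios of other gene pairs separate the groups was not tested. ND3 per 100 of ND5 overlapped in all groups, at 16.3 to 19.6, 16.6 to 19.9 and 17.4 to 21.3.

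ND1 could also be set against ATP6, with which it shares 5 bases. Wild type held 20.1 to 21.1 counts of ND1 per 100 of ATP6, ABR275 24.1 to 27.8 and ABR484 27.1 to 29.5. Both transgenic groups lay above wild type in this ratio, although the level of ND1 itself went down in the first and up in the second. ATP6 fell from 2320 CPM in wild type to 1470 CPM in ABR275 (log2 fold change -0.66, edgeR adjusted p = 2.1e-08). This was a larger fall than that of ND1 (-0.36), so the ratio was higher in ABR275 with less RNA of both genes.

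**Figure D4:**
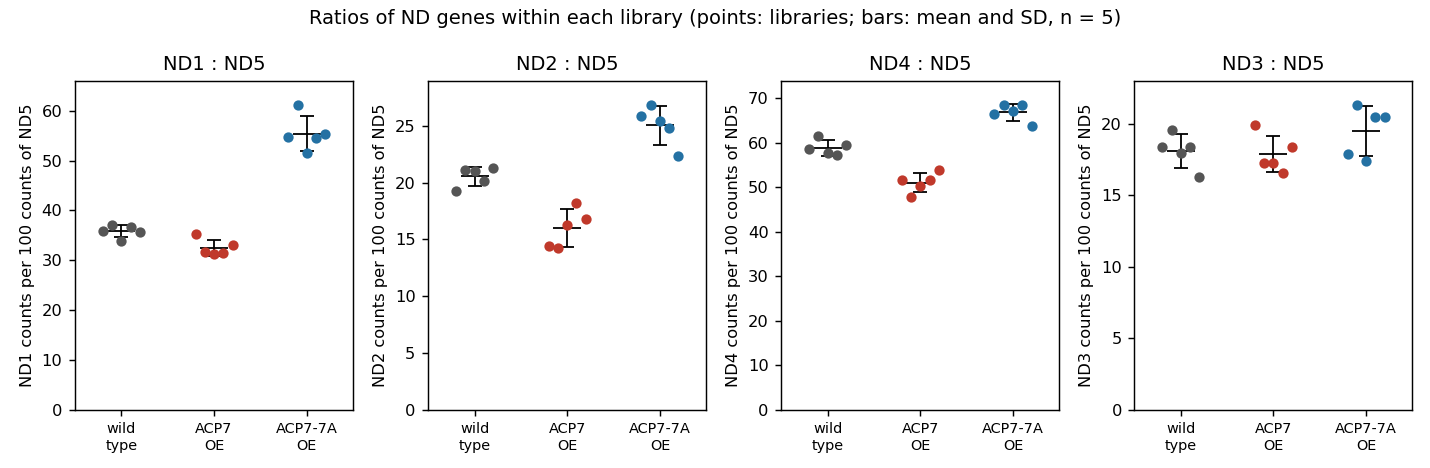
Counts of ND1, ND2, ND4 and ND3 per 100 counts of ND5 in the same library, with a point for each library and bars for the mean and SD of 5 libraries. For ND1 the ABR484 libraries (51.6 to 61.1) lie above all others (31.2 to 37.1), and for ND3 the groups overlap.

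The 7 ND genes together took 0.282% to 0.342% of all counts in wild type, 0.236% to 0.273% in ABR275 and 0.259% to 0.305% in ABR484. Only the first 2 of these ranges do not overlap. Of the counts of the 12 mitochondrial protein-coding genes, ND genes made up 19.6% to 21.5% in wild type, 20.5% to 21.4% in ABR275 and 19.5% to 20.2% in ABR484. Within that share the make-up differed. ND1 held 2.88% to 3.23% of mitochondrial coding counts in wild type, 2.98% to 3.28% in ABR275 and 3.82% to 4.21% in ABR484. ND5 held 8% to 9.05%, 9.03% to 9.73% and 6.89% to 7.4%.

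The genes of complexes III, IV and V on the same chromosome gave a like mix. In ABR275 against wild type 4 of 5 fell and 0 rose, with CYTB, of complex III, at 1040 ± 17.6 CPM in ABR275, against 957 ± 60.8 CPM in wild type (adjusted p = 0.25). Between the strains 3 of 5 were lower in ABR275, namely ATP6 (log2 fold change -0.48, edgeR adjusted p = 3.3e-06), COX3 (-0.42, 0.00089) and COX1 (-0.33, 0.0041). CYTB was higher in ABR275 than in ABR484 (log2 fold change 0.18, SE 0.05, edgeR adjusted p = 0.026), but no longer past the threshold without ABR484 library 3 or 5. In ABR484 against wild type ATP6 fell (log2 fold change -0.18, edgeR adjusted p = 0.047) and the other 4 did not pass. None of the 5 passed without any of wild-type libraries 1 to 4, ABR275 library 3 or ABR484 library 1, 2, 3 or 5, while all 5 were lower without wild-type library 5 and 4 without the 3 libraries that stood apart. Over all genes 1358 and 1063 were lower in the last 2 settings, against 660 with all libraries.

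Measures of the preparation and of other cells are given beside these levels, and some of them differed between groups or libraries. Ribosomal RNA genes took 2.13% to 3.08% of counts in wild type, 0.936% to 2.56% in ABR275 and 1.21% to 2.08% in ABR484. Both mitochondrial rRNA genes together had 49.8 ± 4.28, 45 ± 11.5 and 47.6 ± 5.8 CPM (SD, n = 5 each), and neither passed in any comparison. The 6 body wall muscle markers summed to 2890, 3030, 2850, 2840 and 2140 CPM in wild type, 2760, 2160, 2040, 2190 and 2340 CPM in ABR275 and 1980, 2380, 3390, 3460 and 3630 CPM in ABR484. None of the 6 passed in edgeR in any comparison with all libraries (2, 0 and 3 at an unadjusted p under 0.05, and 0, 0 and 3 lower by DESeq2, in the order of the comparisons above). Without the 3 libraries that stood apart all 6 were lower in ABR275 against either other group, and 2 were higher in ABR484 than in wild type. Calls over all genes also went up. In ABR275 against wild type 1021 genes were higher and 1413 lower, against 233 and 189 with all libraries. ABR484 against wild type had 684 higher and 1063 lower (419 and 660 with all libraries). Between the strains there were 1085 and 1127 (754 and 592 with all libraries). The part of this rise in the marker counts was not tested. Without the 3 libraries 30 of 31 sperm markers were higher in ABR275 than in wild type (0 with all libraries, 19 at an unadjusted p under 0.05, 3 by DESeq2). Against wild type 24 of 31 were also higher in ABR484 (with all libraries 0 by each of these measures). Of germline and oocyte markers 4 were then higher in ABR275 and 2 in ABR484 against wild type. Of intestine markers 3 were lower in ABR484 and 0 in ABR275. The 31 sperm markers summed to 342 to 528 CPM in ABR275 and 160 to 251 CPM in wild type, the 8 germline and oocyte markers to 4820 to 5840 and 4440 to 5530 CPM, the 5 intestine markers to 1040 to 1250 and 877 to 1280 CPM, and the 6 neuron markers to 206 to 243 and 216 to 234 CPM. In ABR484 those 4 sums were 81.1 to 379, 5100 to 6460, 782 to 1030 and 213 to 244 CPM. In ABR484 against wild type 3 of 8 germline and oocyte markers rose and 1 of 5 intestine markers fell. Over all genes 2.66% rose and 4.2% fell. At an unadjusted p under 0.05 there were 6 and 3 of these markers, and DESeq2 called 5 higher and 2 lower. Between the strains 1 intestine and 1 sperm marker were higher in ABR275, against 4.79% of all genes. There 4 intestine, 3 sperm and 2 germline and oocyte markers had an unadjusted p under 0.05. DESeq2 called 2 intestine and 2 sperm markers higher. No neuron marker passed in edgeR with all libraries (1, 2 and 1 at an unadjusted p under 0.05, and 0, 1 and 0 by DESeq2). Without the 3 libraries that stood apart 3 of 6 were lower in ABR275 and 1 in ABR484 against wild type. In that setting 1 was higher in ABR484 than in wild type, and 1 was lower in ABR275 than in ABR484. Leaving out wild-type library 5 alone gave 2 lower in ABR484 against wild type (1358 over all genes). The part of these differences in the ND results was not tested.

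No nuclear gene of complex I passed the threshold. Of 36 such genes 35 were tested, and 0 rose and 0 fell in each of the 3 comparisons (edgeR adjusted p under 0.05). Over all genes 2.68%, 6.86% and 8.56% were called in these comparisons, so few calls would be found in 35 genes at those shares. At an unadjusted p under 0.05 there were 2, 2 and 8, and DESeq2 called 0, 0 and 1. Over all genes DESeq2 called more than edgeR in each comparison. Their log2 fold changes ran from -0.22 to 0.09 in ABR275 against wild type, with a median of -0.04 and 28 of 35 below 0. In ABR484 against wild type they ran from -0.23 to 0.11, also with a median of -0.04, and between the strains from -0.17 to 0.19. Without the 3 libraries that stood apart 4 were lower in ABR275 than in wild type (1413 over all genes). In that setting 6 were lower in ABR275 than in ABR484 (1127 over all genes). In ABR275 against wild type the count was above 0 in 2 of 25 alternatives, at most 4, and 0 with any single library left out. With single libraries left out the counts reached 1 in ABR484 against wild type (without wild-type library 5 or ABR484 library 5) and 2 between the strains (without ABR275 library 1 or ABR484 library 5; 1 without wild-type library 5 or ABR484 library 4).

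gas-1, which encodes a core subunit near the ubiquinone site and gives worms sensitive to anaesthetics when mutated, had the smallest p in ABR275 against wild type, with 120 and 140 CPM (log2 fold change -0.22, edgeR adjusted p = 0.19). ndua-2, an accessory subunit gene, had 38.6 CPM in ABR484 and 45.2 CPM in wild type (log2 fold change -0.23, adjusted p = 0.092). Between the strains nuo-5, which encodes a core subunit that carries iron-sulphur clusters, had 316 CPM in ABR275 and 349 CPM in ABR484 (log2 fold change -0.14, adjusted p = 0.076). The 5 assembly factor genes of the nuaf series held no call in any comparison (0, 1 and 1 at an unadjusted p under 0.05, and 0 by DESeq2).

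**Figure D5:**
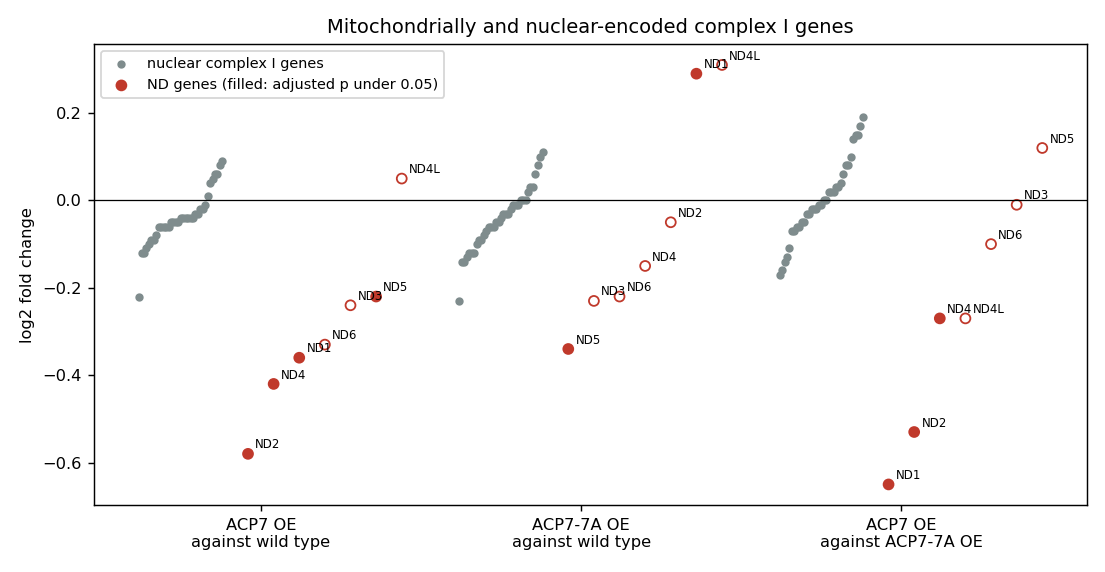
Log2 fold changes of 35 nuclear complex I genes (grey) and the 7 ND genes (red, filled where the adjusted p is under 0.05) in the 3 comparisons, sorted within each set. The nuclear genes stay between -0.23 and 0.19, while ND genes reach from -0.65 (ND1 between the strains) to 0.31 (ND4L, not past the threshold).

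Genes that copy, transcribe and process mitochondrial DNA and RNA gave 2 calls. Of 12 listed, 10 were matched by symbol and tested. None passed in ABR275 against wild type, at an adjusted or unadjusted p under 0.05 or by DESeq2. In ABR484 against wild type and between the strains 1 of 10 was called in each. Over all genes 6.86% and 8.56% were called there, so 1 call in 10 genes is near those shares. DESeq2 called 2 higher and 1 lower in ABR484 against wild type, and 1 higher between the strains. At an unadjusted p under 0.05 there were 3 in each. hmg-5, the worm counterpart of the mitochondrial DNA-packaging and transcription factor TFAM, was higher in ABR275 than in ABR484. Wild type had 45.9, 41.5, 48.9, 51.1 and 55.6 CPM, and the main edgeR fit called hmg-5 in neither strain against it. By DESeq2 its log2 fold change against wild type was 0.04 in ABR275 (adjusted p = 0.91) and -0.47 in ABR484 (adjusted p = 0.0079). Its levels were 33.4, 54.7, 56.2, 54.5 and 49.1 CPM in ABR275 and 42, 30.1, 26.5, 40 and 35.8 CPM in ABR484, which overlap (log2 fold change 0.51, SE 0.14, edgeR adjusted p = 0.037). That call was lost, at an adjusted p from 0.051 to 0.11, without wild-type library 1, 3 or 4, ABR275 library 2, 3, 4 or 5, or ABR484 library 2, 3 or 5. It was also lost without the 3 libraries that stood apart (0.086), with only the 2 groups compared (0.089), without a low-count filter (0.091) and with the replicate block (0.074). nsun-4, which encodes a mitochondrial RNA methyltransferase, was at 40.3 CPM in ABR484 and 33.8 CPM in wild type with no overlap (log2 fold change 0.25, SE 0.07, edgeR adjusted p = 0.033). Its adjusted p reached 0.05 to 0.099 without any of wild-type libraries 1 to 4 or ABR484 libraries 1, 2 or 5, and was 0.077 without the 3 libraries that stood apart, 0.056 without a low-count filter and 0.067 with the replicate block.

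The members did not all share a pattern over the libraries. Over the 15 libraries, which share their grouping and scaling, log2 CPM of ND2 and ND4 had a Pearson r of 0.92 and that of ND3 and ND6 of 0.81, while ND1 and ND5 had an r of -0.14. Among 10447 ranked genes outside the 7, the 5 nuclear genes whose log2 CPM was most like the mean of the ND genes were ptrn-1, a microtubule minus-end protein gene (r = 0.925), madd-2, a gene of muscle arm and axon guidance (r = 0.912), hpk-1, a protein kinase gene (r = 0.903), lbp-1, a fatty acid-binding protein gene (r = 0.901), and F52G3.1 (r = 0.898). By the same measure COX1 ranked 5, COX3 6, ATP6 11 and COX2 119, and CYTB ranked 8768 with an r of -0.363. These genes were chosen by their likeness over the same libraries, so their own differences between groups are not given as results.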

How the data were processed

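Poly(A) RNA of whole worms was sequenced as read pairs of 150 nucleotides. The authors deposited 1 table of whole-number counts per gene, not normalized; per the file headers the counter was featureCounts 2.0.6. The submitters' processing notes list Trim Galore and STAR without versions, and WBcel235 as genome build. How strand, multi-mapping reads and mates were handled is not given in the sources used here. Between 81.3% and 86.1% of values from 5 to 39 were even, so mates appear to be counted separately, and halved counts were an alternative. Symbols came from RefSeq, which matched 46925 of 46929 gene identifiers.

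Differences were tested in R 4.3.3 with edgeR 4.0.16 (quasi-likelihood F test, robust), after filterByExpr and TMM scaling, in 1 fit of all 15 libraries by group, and adjusted over 15725 genes. CPM values are TMM-scaled. ABR275 is the group ACP7 OE and ABR484 the group ACP7-7A OE. Standard errors and 95% intervals are those implied by the test. DESeq2 1.42.0 was an alternative. The procedure was tested on simulated data. The ND genes, the gene lists and the libraries said to stand apart were chosen with earlier results of these data known. Named genes are the ND genes, other mitochondrial genes where a result turns on them, in each list the members that passed, at most 4 taken by p, or else the 2 of smallest p, the 5 nuclear genes most like the ND mean, and F21A3.11. Protein and nucleotide sequences were not used here.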

Additional observations from a re-analysis of the deposited data

Results flagged for a closer look

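ND1 in wild-type library 5, at 423 CPM, stood apart from the other wild-type libraries (478 to 495 CPM): its gap to the nearest of them was 0.762 of the whole range of the group, above Dixon's 95% critical value of 0.71 for 5 samples. It was the only value so marked among 24 groups examined (7 genes and their summed share of counts, in 3 groups), and chance marks about 1 in 20 groups. Without that library ND1 had a log2 fold change of -0.41 in ABR275 (edgeR adjusted p = 7.9e-06) and 0.23 in ABR484 (adjusted p = 0.0034) against wild type.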

How the results depend on the processing

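ND1, ND2 and ND4 in ABR275, ND1 and ND5 in ABR484, and ND1, ND2 and ND4 between the strains kept their direction and their call under all 25 alternatives. The number of ND genes lower in ABR275 was 3 to 6 and between the strains always 3. In ABR484 against wild type 1 ND gene was lower, 2 with DESeq2, without a low-count filter or without the 3 libraries that stood apart, and 1 to 3 with single libraries left out. ND5 in ABR275 missed the threshold with RLE size factors (adjusted p = 0.06), upper-quartile scaling (0.063) and a filter of 50 counts in 5 libraries (0.07). The fold change of ND4L in ABR275 against wild type changed sign to -0.07 without the 3 libraries, and ran from -0.07 to 0.25 with single libraries left out. That of ND3 between the strains was 0 without a low-count filter and with the stricter one, and ran from -0.05 to 0.03 with single libraries left out. The cause was not tested.

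Over all genes, 422 passed in ABR275 against wild type, 723 with DESeq2, 264 with the stricter filter, 1182 with only the 2 groups compared, 2434 without the 3 libraries, and 256 to 794 with single libraries left out. In ABR484 against wild type 1079 passed, 1724 with DESeq2, 1747 without the 3 libraries, and 402 to 2248 with single libraries left out. Between the strains 1346 passed, 2212 without the 3 libraries, and 883 to 1901 with single libraries left out. No scaling moved the median of all genes by more than 0.02. The replicate block gave 633 genes in ABR484 against wild type and an adjusted p of 0.058 for ND5 in ABR275, and changed no other call on an ND gene. Replicate numbers do not pair the libraries: deviations from the group means of same-numbered libraries had correlations from -0.37 to 0.19, and the best match carried the same number in 2 of 30 cases. Depth limits ND4L, with at most 131 counts in a library.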

Other observations

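Mitochondrial ribosomal proteins, which are encoded in the nucleus and build the ribosome that translates the ND transcripts, gave calls for 2 of 71 tested genes in ABR484 and for 0 in ABR275 against wild type, where 6.86% and 2.68% of all genes were called. mrpl-11 fell in ABR484 against wild type from 69 to 52.5 CPM (edgeR adjusted p = 0.0014, log2 fold change -0.4, SE 0.07), and mrpl-1 from 44.9 to 30.2 CPM (adjusted p = 0.019, log2 fold change -0.57, SE 0.13). The call on mrpl-1 was lost without wild-type library 3 or 4 (edgeR adjusted p = 0.059 and 0.055). It was also lost without the 3 libraries that stood apart (0.066) and without a low-count filter (0.052). Both genes were higher in ABR275 than in ABR484 (adjusted p = 0.00062 and 0.0089). In ABR275 against wild type 0 of 71 passed in edgeR or DESeq2, with 2 at an unadjusted p under 0.05. DESeq2 called 3 lower and 0 higher in ABR484 against wild type, with 7 at an unadjusted p under 0.05. Between the strains it called 3 higher and 3 lower in ABR275, with 12 at an unadjusted p under 0.05.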
